A study of Mus musculus with 6 samples.

Results

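Synaptic adhesion and organizer proteins are cell-surface and secreted molecules that hold the presynaptic and postsynaptic membranes together and gather receptors and release machinery at the contact. The 43 genes described here were taken from a list of such genes outside the protocadherins and matched by gene symbol to 43 of the 54532 gene identifiers in the count tables of a mouse brain RNA-seq experiment. They fall into 14 groups by family: neurexins, neuroligins, LRRTMs, SLITRKs, LAR-type receptor phosphatases, netrin-G ligands, SALMs, teneurins, latrophilins, FLRTs, calsyntenins, cerebellins, SynCAMs and Igsf9b. Of the family names, the acronyms stand for groups of leucine-rich repeat or immunoglobulin-domain membrane proteins.

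The experiment asked which transcripts change in the brain when Mphosph8 is deleted in the nervous system. Mphosph8 encodes MPP8, a subunit of the HUSH complex, which represses transcription at chromatin carrying trimethylated lysine 9 of histone H3. Polyadenylated RNA of whole brains of C57BL/6J mice was sequenced on postnatal day 14, in 3 control brains labelled Mphosph8fl/+ Nestin-Cre+ and 3 brains labelled Mphosph8fl/fl Nestin-Cre+, named Mphosph8∆n. Both groups therefore carried the Nestin-Cre transgene and at least 1 floxed allele. By these labels, 1 allele of Mphosph8 would be deleted in the Cre lineage of controls, and both in that of Mphosph8∆n. A change already present in such controls would not show as a difference between the groups. Nestin-Cre recombines floxed DNA in neural progenitors and so in most neurons and macroglia, whereas microglia and blood vessel cells arise from other lineages.

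At a synapse, presynaptic hubs such as neurexins and LAR-type receptor phosphatases bind many postsynaptic partners, and the partner that is bound helps to set whether the contact becomes excitatory or inhibitory. Neuroligins, LRRTMs, SLITRKs, SALMs and netrin-G ligands sit mainly on the postsynaptic side. Teneurins, latrophilins and FLRTs form complexes across the cleft, cerebellins are secreted bridges between neurexins and postsynaptic receptors, and calsyntenins and SynCAMs are further adhesion molecules of the contact. In mice, the end of the second postnatal week is a time of dense synapse formation in many brain regions.

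The libraries held from 12956880 to 15223424 counts. Mphosph8 (ENSMUSG00000079184, chromosome 14, 56668248 to 56697430, GRCm38) was read first, to compare the labels with the transcript they concern. It stood at 55.8, 48.6 and 70.7 CPM (counts scaled to a common library size) in control replicates 1, 2 and 3, and 33.1, 27.2 and 26.5 CPM in Mphosph8∆n replicates 1, 2 and 3. All 3 Mphosph8∆n libraries were below the 3 controls, with a log2 fold change of -1.02 ± 0.12 (SE, n = 3 per group) and an adjusted p of 0.000157 (edgeR quasi-likelihood test, Benjamini-Hochberg over 16731 genes). Transcript was still counted in every Mphosph8∆n library, and gene counts do not separate the floxed part of the gene from the rest. Control replicate 3 stood apart from the other 5 libraries in sex-linked transcripts, with 3641 counts of 4 Y-linked genes and 27 of Xist, against 0 or 1 Y-linked counts and 11130 to 17697 of Xist elsewhere. By these counts control replicate 3 was a male brain and the other 5 were female. The labels used here give no sex, and the paper describes its mice as matched for sex. The groups therefore differed in sex makeup, and the fold changes of the members were also computed without control replicate 3.

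All 43 synaptic adhesion genes were well expressed and passed the filter on low counts, with levels in single libraries from 14.0 CPM (Cbln4) to 1309 CPM (Clstn1). No difference between the genotypes was detected for any of them. No member reached an adjusted p under 0.05, where 0.628% of all genes tested did, and none was called at an adjusted p under 0.05 with a fold change over 2, where 0.359% of all genes were. Adjusted p-values of the members ran from 0.716 to 1.000. At an unadjusted p under 0.05, 3 members passed (Adgrl3, Clstn2 and Tenm2), 6.98% of the list against 6.51% of all genes. The count of members at an adjusted p under 0.05 was also 0 by DESeq2 and by limma-voom.

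The log2 fold changes of the 43 genes lay between -0.19 (Clstn2) and 0.28 (Adgrl3), 25 above 0 and 18 below, with a median of 0.014 against -0.007 over all genes. The data bound how large a difference could have been missed. For 43 of 43 genes the 95% interval of the fold change lay within 1.5-fold in both directions, where 74.3% of all genes tested had such an interval. Members are abundant, and abundant genes have narrow intervals: among the 9320 genes whose average log2 CPM lay in the members' range, from 3.99 to 10.1, the share was 98.7%. The lowest limit of any member's interval was a log2 fold change of -0.374 (Clstn2) and the highest was 0.534 (Adgrl3). The limit of 1.5-fold was chosen after the data were seen. The 3 Mphosph8∆n values were all above the 3 control values for 0 members (6.23% of all genes) and all below for 1 member, Clstn2 (5.42% of all genes).

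**Figure D1:**
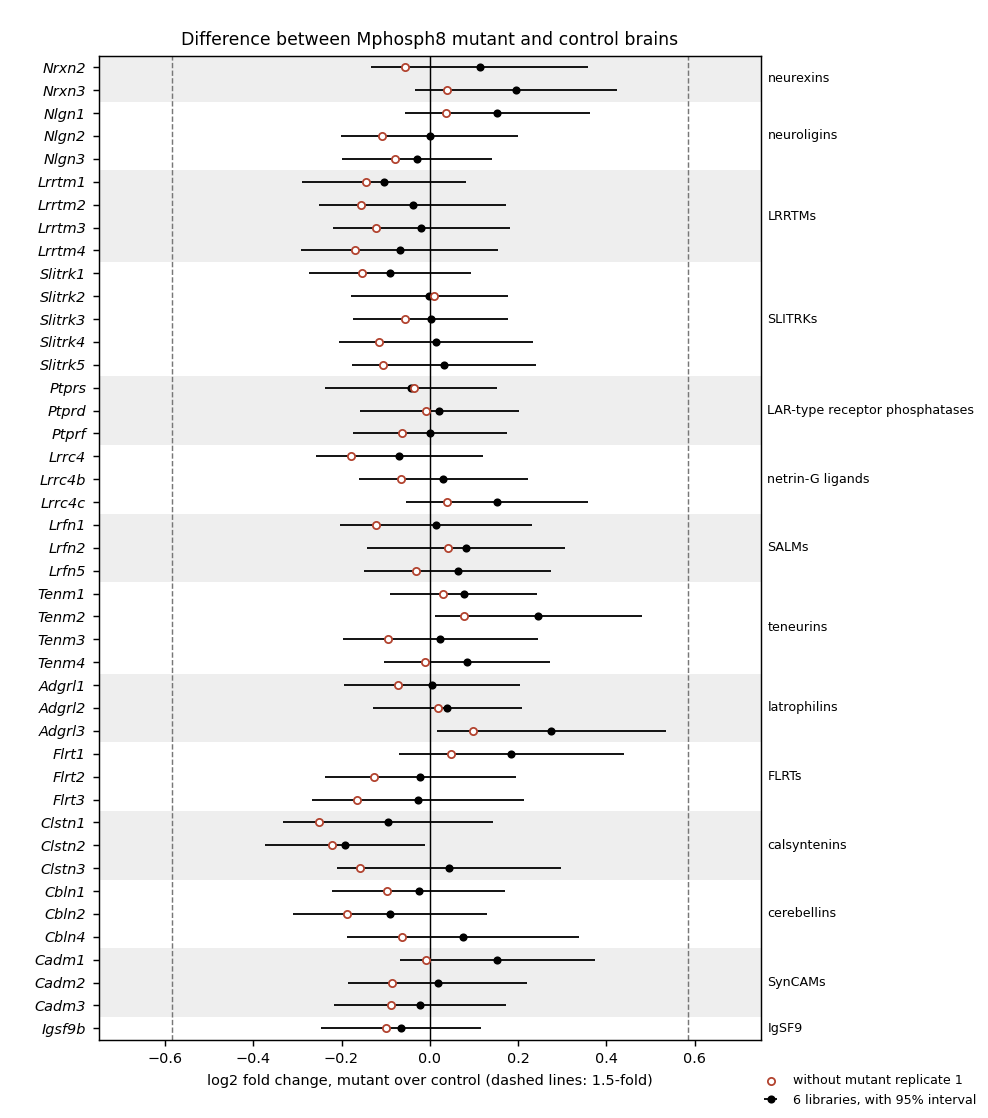
Log2 fold change (Mphosph8∆n over control, n = 3 libraries per group) of each synaptic adhesion gene, by family. Filled points with bars are edgeR estimates with 95% intervals over 6 libraries, open points are estimates without mutant replicate 1 (Mphosph8∆n replicate 1), and dashed lines mark 1.5-fold. All 43 intervals lie between the dashed lines, and open points lie mostly to the left of the filled ones.

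**Figure D2:**
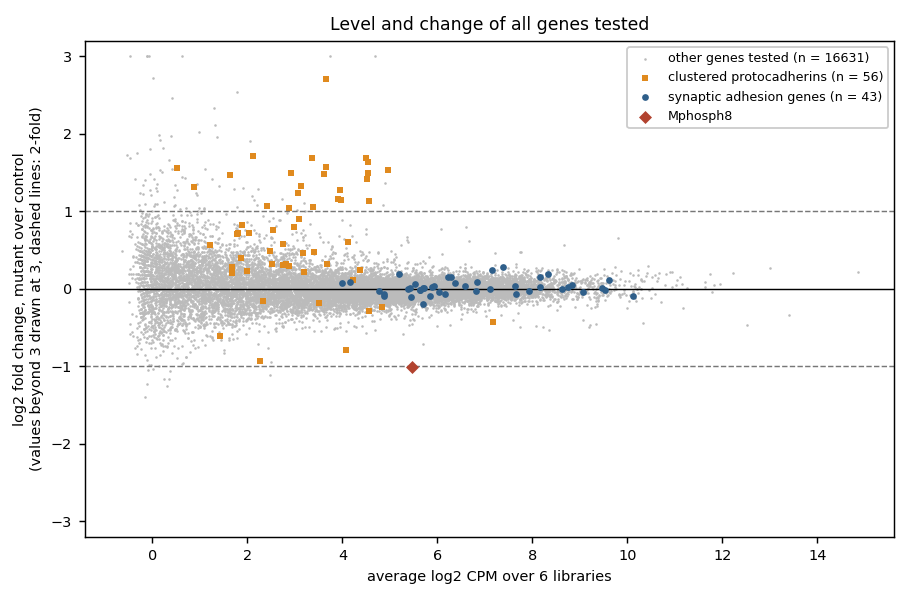
Average level (log2 CPM over 6 libraries, x axis) and log2 fold change (Mphosph8∆n over control, y axis) of all genes tested, with values beyond 3 drawn at 3 and dashed lines at 2-fold. The 43 synaptic adhesion genes lie near 0 at moderate to high levels, while 10 beta and 11 gamma protocadherins above the upper dashed line were called and Mphosph8 lies at -1.02.

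The list was drawn up to include proteins that could respond to a change in the clustered protocadherins, a large family of neuronal adhesion molecules. In the same fit, 10 of 21 beta and 11 of 22 gamma protocadherins tested were called higher in Mphosph8∆n brains, and 0 of 13 alpha protocadherins. At an adjusted p under 0.05 with no fold limit, 11 beta and 13 gamma protocadherins were higher, and 1 alpha and 2 gamma were lower. Median log2 fold changes were 0.75 for beta, 1.02 for gamma and 0.57 for alpha protocadherins. Against these, the member farthest from 0, Adgrl3, stood at 0.28.

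Neurexins are the presynaptic hub proteins of this network. Per kilobase of exonic length, Nrxn2 was the higher of the pair measured here at 54.8 ± 3.26 RPKM in controls (SD, n = 3), 2.31 times Nrxn3 at 23.8 ± 1.85 RPKM, and their library values did not overlap. Nrxn2 (chromosome 19) had 808, 737 and 725 CPM in the control libraries and 1001, 706 and 749 CPM in Mphosph8∆n, a log2 fold change of 0.11. Nrxn3 (ENSMUSG00000066392, chromosome 12, 88722876 to 90334935) had 277, 298 and 324 CPM in controls and 413, 299 and 317 CPM in Mphosph8∆n. For both genes Mphosph8∆n replicate 1 was the highest library, and the other Mphosph8∆n values fell inside or next to the control range. The log2 fold change of Nrxn3 was 0.20 ± 0.11 (SE), with a 95% interval from -0.03 to 0.42 and an adjusted p of 0.866. Without Mphosph8∆n replicate 1 it was 0.04.

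Neuroligins are postsynaptic neurexin receptors, with Nlgn1 found mainly at excitatory and Nlgn2 at inhibitory contacts. Nlgn2 was highest per length at 68.7 ± 3.13 RPKM in controls, Nlgn3 followed at 20.9 ± 1.20 RPKM and Nlgn1 was lowest at 5.52 ± 0.32 RPKM, with no overlap between neighbours. Nlgn2 had 385, 388 and 418 CPM in controls and 454, 374 and 364 CPM in Mphosph8∆n, so its group means were 397 and 397 CPM and its log2 fold change was -0.0004. Nlgn1 (ENSMUSG00000063887, chromosome 3, 25426215 to 26332460) had 69.3, 77.6 and 75.6 CPM in controls and 95.4, 69.7 and 82.3 CPM in Mphosph8∆n. Its groups overlapped, the log2 fold change was 0.15 ± 0.10 (SE, 95% interval -0.06 to 0.36) and the adjusted p was 0.897. Nlgn3, which is X-linked, had the lowest log2 fold change of the family at -0.03. About 3823 of the 9271 exonic bases of Nlgn3 are also annotated to another gene on the same strand, so its level was computed over the remaining length.

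The LRRTMs are postsynaptic leucine-rich repeat proteins that bind neurexins at excitatory synapses. Their order per length was Lrrtm1 at 14.9 RPKM, Lrrtm3 at 11.8, Lrrtm2 at 10.9 and Lrrtm4 at 4.88 RPKM (control means), of which Lrrtm3 and Lrrtm2 overlapped. Lrrtm1 (ENSMUSG00000060780, chromosome 6, 77242689 to 77257791) had 47.4, 46.2 and 41.6 CPM in controls and 44.4, 40.7 and 40.9 CPM in Mphosph8∆n. Control replicate 3 and Mphosph8∆n replicate 1 crossed, and the log2 fold change was -0.10 ± 0.09 (SE, 95% interval -0.29 to 0.08, adjusted p 0.928). All 4 LRRTMs had a log2 fold change below 0, the one nearest to 0 being Lrrtm3 at -0.02, and none passed the test. The summed level of the family was 186, 192 and 195 CPM in controls and 207, 175 and 170 CPM in Mphosph8∆n.

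SLITRKs bind presynaptic LAR-type receptor phosphatases, which in turn recruit proteins of the release site. All 5 SLITRKs of the list have their coding sequence in 1 exon, as does Slitrk6, outside the list, which stood at 1.38 RPKM in controls. Slitrk5, Slitrk1 and Slitrk3 stood at 11.5, 11.0 and 10.7 RPKM in controls, where neighbours overlapped, and Slitrk2 and Slitrk4 stood lower at 5.17 and 4.85 RPKM and also overlapped. Slitrk1 (ENSMUSG00000075478, chromosome 14, 108908800 to 108914158) had 55.3, 60.3 and 61.1 CPM in controls and 60.0, 55.5 and 50.5 CPM in Mphosph8∆n. Its log2 fold change was -0.09 ± 0.09 (SE, 95% interval -0.27 to 0.09, adjusted p 0.941), the lowest of the family, and Slitrk5 was the highest at 0.03. The 3 receptor phosphatases ran in the order Ptprs at 36.1 ± 2.93 RPKM in controls, Ptprd at 18.7 ± 1.04 RPKM and Ptprf at 13.9 to 16.3 RPKM over the 6 libraries, without overlap. Their log2 fold changes lay between -0.04 (Ptprs) and 0.02 (Ptprd), and their summed level was 1106 ± 72.9 CPM in controls and 1097 ± 45.0 CPM in Mphosph8∆n (SD, n = 3).

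The netrin-G ligands are postsynaptic partners of netrin-G proteins and, for Lrrc4b, of LAR-type phosphatases. Lrrc4b was highest at 67.5 RPKM in controls, against 18.4 for Lrrc4 and 15.4 for Lrrc4c, which overlapped. Lrrc4c (ENSMUSG00000050587, chromosome 2, 96318169 to 97631666) had 65.0, 78.7 and 69.4 CPM in controls and 90.9, 71.4 and 74.4 CPM in Mphosph8∆n, with overlapping groups. The log2 fold change was 0.15 ± 0.10 (SE, 95% interval -0.05 to 0.36, adjusted p 0.897), and that of Lrrc4 was the lowest of the family at -0.07. The SALMs bind postsynaptic scaffolds or presynaptic phosphatases. Of the 3 on the list, Lrfn1 was highest at 13.3 RPKM in controls, and Lrfn2 and Lrfn5 overlapped at 5.39 and 4.71 RPKM. The log2 fold changes of these 3 ran from 0.01 (Lrfn1) to 0.08 (Lrfn2). Lrfn4 and Lrfn3, SALMs outside the list, stood at 20.2 and 8.92 RPKM in controls, with log2 fold changes of -0.06 and -0.03.

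Teneurins are large transmembrane proteins that bind latrophilins, adhesion G protein-coupled receptors, across the cleft. Tenm2 was the highest teneurin at 11.4 ± 0.98 RPKM in controls, and Tenm3, Tenm4 and Tenm1 followed at 5.71, 5.29 and 4.51 RPKM, with neighbours overlapping. Tenm2 (ENSMUSG00000049336, chromosome 11, 36006656 to 37235964) had 133, 118 and 140 CPM in controls and 189, 131 and 144 CPM in Mphosph8∆n. Replicate 1 of Mphosph8∆n exceeded every control by a wide margin, replicate 2 lay inside the control range and replicate 3 just above it. The log2 fold change was 0.25 ± 0.11 (SE, 95% interval 0.01 to 0.48, adjusted p 0.726), and it was 0.08 without Mphosph8∆n replicate 1. The lowest of the family was Tenm3 at 0.02.

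Among latrophilins, Adgrl1 was highest at 82.8 ± 3.96 RPKM in controls, 12.4 times Adgrl2 at 6.69 ± 0.52 RPKM, with Adgrl3 at 8.53 ± 1.13 RPKM between them. Adgrl3 (ENSMUSG00000037605, chromosome 5, 81020138 to 81825133), a receptor for teneurins and FLRTs, had the largest log2 fold change of the list. Its levels were 128, 161 and 165 CPM in controls and 226, 151 and 174 CPM in Mphosph8∆n. Control replicate 1 was the lowest library and Mphosph8∆n replicate 1 the highest, and replicate 2 of Mphosph8∆n lay below 2 of the 3 controls. The log2 fold change of 0.28 ± 0.12 (SE, 95% interval 0.02 to 0.53) did not pass the test over all genes, with an adjusted p of 0.716. It was 0.10 without Mphosph8∆n replicate 1 and 0.34 without control replicate 3. Adgrl1 had the lowest log2 fold change of the family at 0.005.

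FLRTs are leucine-rich repeat proteins that bind latrophilins and Unc5 receptors. The 3 FLRTs stood at similar levels per length, Flrt2 at 6.43, Flrt1 at 5.79 and Flrt3 at 5.61 RPKM in controls, and both pairs of neighbours overlapped. Flrt1 (ENSMUSG00000047787, chromosome 19, 7092001 to 7105729) had 34.4, 36.2 and 31.5 CPM in controls and 45.7, 30.4 and 40.0 CPM in Mphosph8∆n. Replicates 1 and 3 of Mphosph8∆n were above all controls and replicate 2 was below all of them. The log2 fold change was 0.19 ± 0.12 (SE, 95% interval -0.07 to 0.44, adjusted p 0.897), and Flrt3 had the lowest of the family at -0.03.

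Calsyntenins are cadherin-domain proteins of the synaptic membrane. Clstn1 was the most abundant of the 43 genes per length at 248 ± 2.91 RPKM in controls, 25.4 times Clstn2 at 9.77 ± 0.64 RPKM, with Clstn3 at 91.1 ± 3.69 RPKM between them. Clstn2 (ENSMUSG00000032452, chromosome 9, 97444395 to 98033181) was the single gene of the list whose groups did not overlap. It had 51.5, 58.5 and 56.7 CPM in controls and 50.6, 49.9 and 45.4 CPM in Mphosph8∆n, so that control replicate 1 and Mphosph8∆n replicate 1 differed by little. The log2 fold change was -0.19 ± 0.09 (SE, 95% interval -0.37 to -0.01), which did not pass the test over all genes, with an adjusted p of 0.716. It kept its sign in each of the 13 alternatives computed, from -0.25 to -0.15, and did not pass the test in any.

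Clstn1 and Clstn3 showed how far a single library carried the group mean. Clstn1 had 1154, 1173 and 1147 CPM in controls, and 1309, 975 and 972 CPM in Mphosph8∆n. Clstn3 had 470, 433 and 454 CPM in controls, and 587, 413 and 399 CPM in Mphosph8∆n. In both, Mphosph8∆n replicate 1 was above all controls and replicates 2 and 3 were below all of them. The log2 fold changes were -0.09 and 0.04 over 6 libraries and -0.25 and -0.16 without Mphosph8∆n replicate 1, with adjusted p-values of 0.296 and 0.602 in the latter fit.

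The cerebellins are secreted proteins that link neurexins to glutamate delta receptors. Of the 3 on the list, Cbln1, the cerebellin of the parallel fibre synapse onto Purkinje cells, was highest at 81.3 ± 8.46 RPKM in controls. Cbln2 at 10.5 and Cbln4 at 5.29 RPKM followed, without overlap. The log2 fold changes of these 3 ran from -0.09 (Cbln2) to 0.08 (Cbln4). Cbln3, a cerebellin outside the list, stood at 46.4 RPKM in controls, with a log2 fold change of 0.15. The SynCAMs are immunoglobulin adhesion proteins that bind each other across the cleft. Of the 3 on the list, Cadm3 was highest at 108 ± 4.75 RPKM in controls, with Cadm2 and Cadm1 overlapping at 29.0 and 26.1 RPKM. Cadm4, a SynCAM outside the list, stood higher at 356 RPKM in controls. Cadm1 (ENSMUSG00000032076, chromosome 9, 47530173 to 47857637) had 266, 272 and 281 CPM in controls and 368, 273 and 270 CPM in Mphosph8∆n. Only Mphosph8∆n replicate 1 left the narrow range of the others, and the log2 fold change was 0.15 ± 0.11 (SE, 95% interval -0.07 to 0.37, adjusted p 0.905). Cadm3 had the lowest log2 fold change of the 3 listed SynCAMs at -0.02, and Cadm4 stood at -0.05. Igsf9b, an adhesion protein of inhibitory synapses, had 184 to 222 CPM in controls and 192 to 207 CPM in Mphosph8∆n, with a log2 fold change of -0.06.

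**Figure D3:**
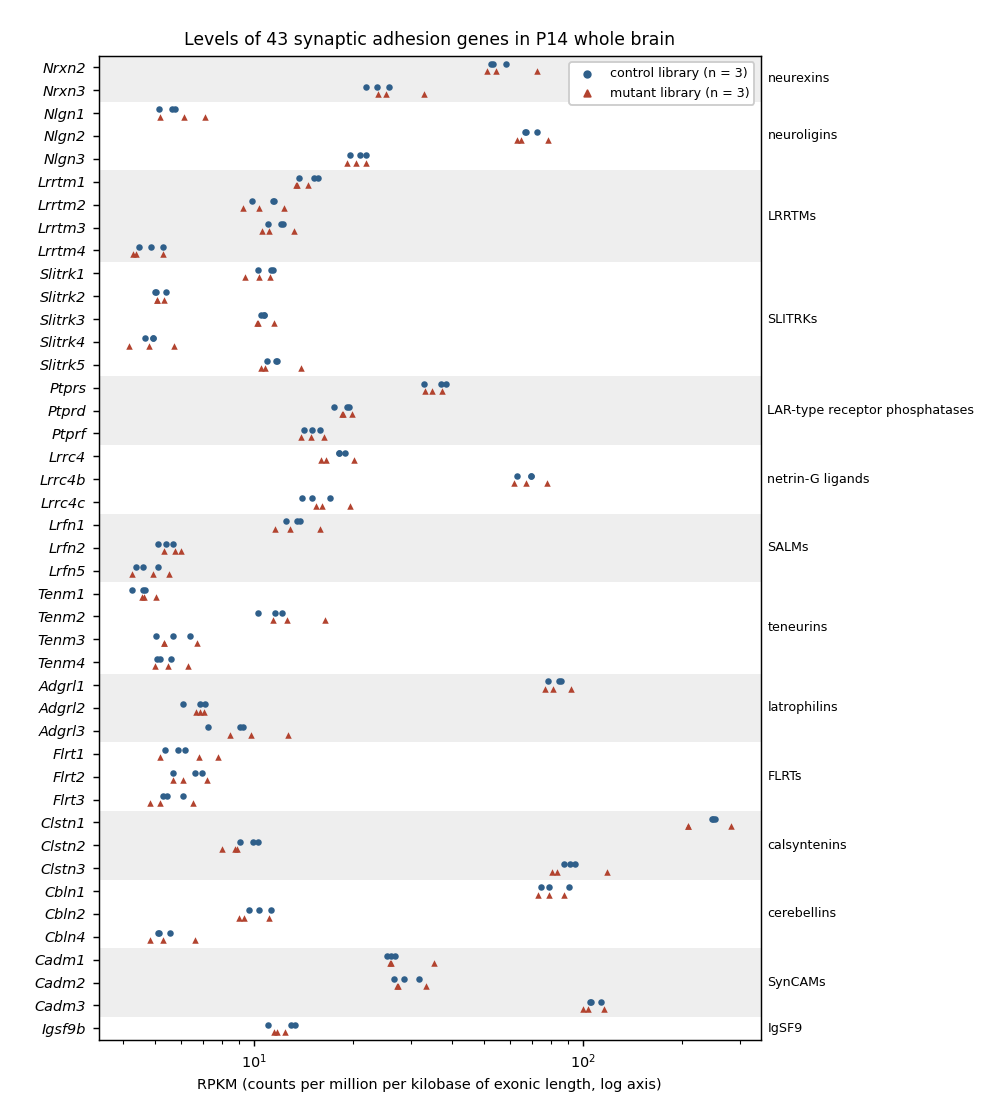
Level of each synaptic adhesion gene per exonic length in RPKM (log axis), with 1 circle per control library and 1 triangle per Mphosph8∆n library (mutant in the key, n = 3 each), by family. Control means run from 4.51 RPKM (Tenm1) to 248 RPKM (Clstn1), and the range of the triangles overlaps that of the circles for every gene but Clstn2.

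Of all 6 libraries, Mphosph8∆n replicate 1 set itself apart in these genes. It was the highest library for 32 of the 43 genes (74.4%), where it was highest for 21.6% of all genes tested and for 22.5% of genes at the members' levels. The median log2 level of the members against the other 5 libraries was 0.23 in Mphosph8∆n replicate 1, and -0.12 and -0.09 in replicates 2 and 3. In the controls it was -0.08, 0.03 and 0.04. The members together made up 9915 CPM in that library, against 8349 to 8762 CPM in controls and 7984 and 8175 CPM in the other Mphosph8∆n libraries. The 2 other Mphosph8∆n brains did not share the higher level.

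**Figure D4:**
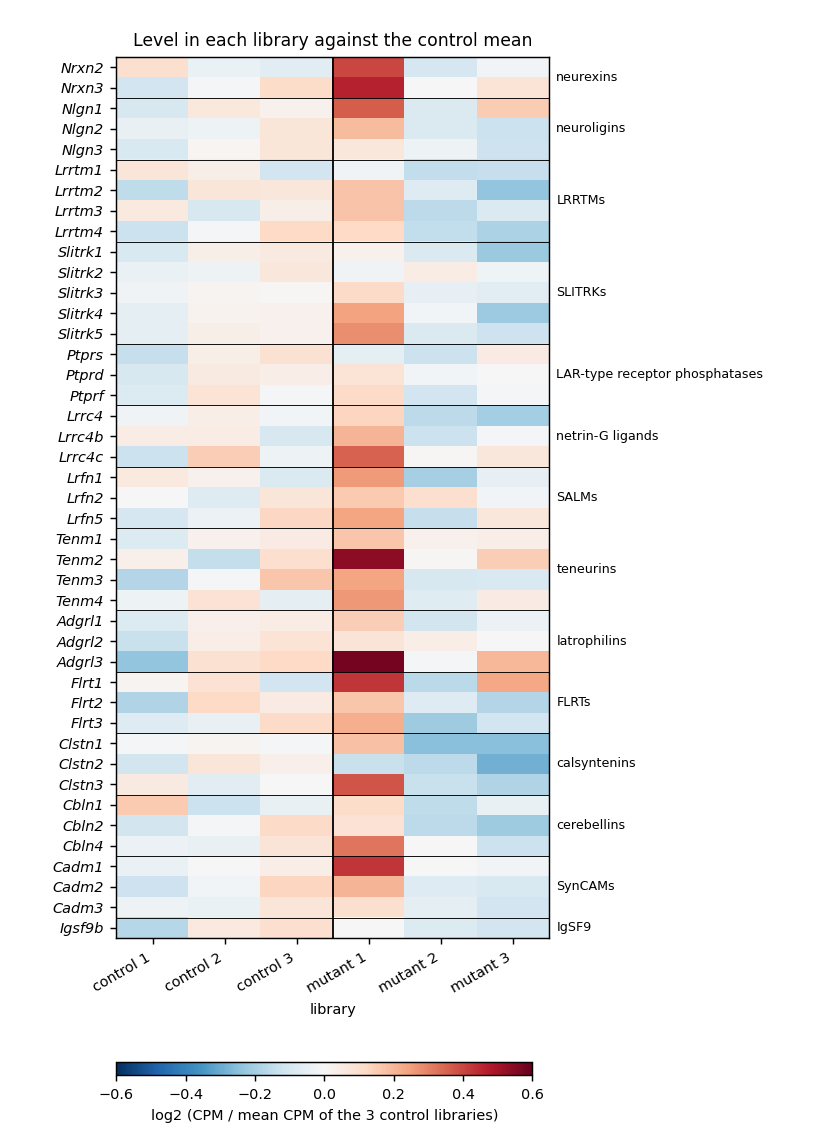
Level of each synaptic adhesion gene (rows, by family) in each library (columns, with mutant for Mphosph8∆n), as log2 of CPM over the mean of the 3 control libraries, in colour. Mphosph8∆n replicate 1 is red in most rows, with the strongest colour in Adgrl3 and Tenm2, while replicates 2 and 3 are pale blue in most.

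Length and base composition of the transcripts were compared with this library's values. Members have a median exonic length of 7248 bases against 4521 for other protein-coding genes, and a median GC content of 49.2% against 49.9%. In Mphosph8∆n replicate 1, the median log2 level against the other 5 libraries was 0.001 for other genes in the longest quartile, which holds 22 members. It was -0.04 for those in the quartile of lowest GC content, which holds 14 members, and 0.03 for those in the quartile of highest GC content, which holds 11. Neuron markers stood at 0.10 in that library, astrocyte markers at 0.15, cortical projection neuron markers at -0.09, cerebellar granule cell markers at -0.01, striatal neuron markers at 0.08 and thalamus and midbrain neuron markers at 0.14. Control replicate 1, the lowest of the controls in the members, was the lowest library of the longest quartile of genes too, at -0.08. The part of transcript length, base composition or cell composition in these library differences was not tested.

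**Figure D5:**
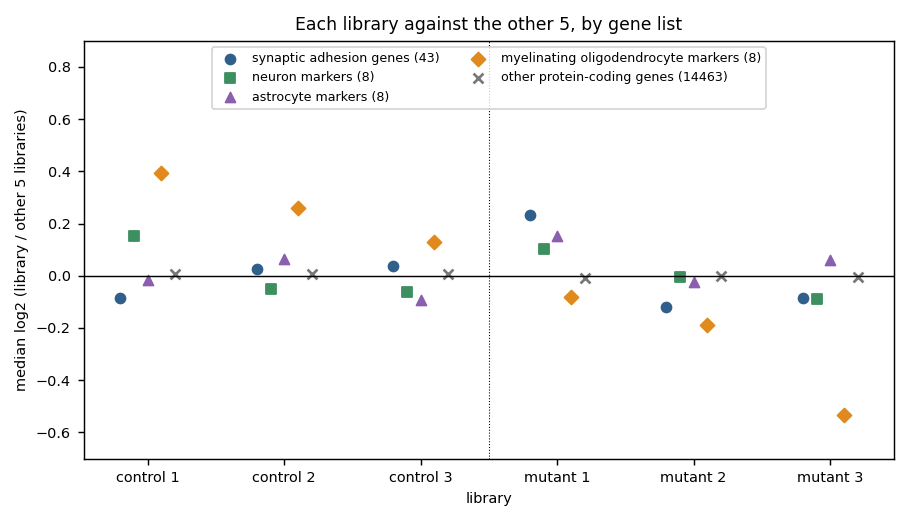
Median log2 ratio of each library (x axis, with mutant for Mphosph8∆n) to the mean of the other 5, for the 43 synaptic adhesion genes, 3 marker lists of 8 genes each and other protein-coding genes. The synaptic adhesion genes are highest in Mphosph8∆n replicate 1 at 0.23, and myelinating oligodendrocyte markers are above 0 in all controls and below 0 in all Mphosph8∆n libraries.

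Without Mphosph8∆n replicate 1, an alternative read with the values in view, 10 of the 43 log2 fold changes were above 0 and the median was -0.08, against -0.004 over all genes. Both remaining Mphosph8∆n values were then below the 3 controls for 12 members (27.9%), where 12.9% of all genes and 15.2% of genes at the members' levels were. They were above the 3 controls for 0 members, where 12.6% of all genes were. Replicate 1 was the highest library for 74.4% of members and 21.6% of all genes, so leaving it out lowers members more often. The excess below the controls is partly set by that choice and was not read as a difference between the genotypes. Counted in either direction, 27.9% of members and 25.5% of all genes did not overlap in these 5 libraries. The 12 genes were Nlgn2, Lrrtm1, Lrrtm4, Slitrk3, Slitrk5, Lrrc4, Flrt3, all 3 calsyntenins, Cbln2 and Cadm3. No member passed at an adjusted p under 0.05 in that fit either, and the lowest adjusted p was 0.296 (Clstn1). Without control replicate 3 the median was 0.04.

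In whole brain RNA, fewer cells of a type and less RNA per cell cannot be told apart. The marker lists were therefore read beside the members. Neuron markers (Rbfox3, Snap25, Syt1, Tubb3, Map2, Stmn2, Nefl and Eno2) had a median log2 fold change of -0.04 and 0 of 8 passed, with sums of 4779 to 5064 CPM in controls and 4751 to 5124 CPM in Mphosph8∆n. Myelinating oligodendrocyte markers had log2 fold changes from -0.49 to -0.24, all 8 below 0, and sums of 21576 to 25839 CPM in controls against 17129 to 19850 CPM in Mphosph8∆n. Of these, Mog (-0.49) and Cldn11 (-0.49) passed at an adjusted p under 0.05. Medians were 0.07 for astrocyte, -0.11 for oligodendrocyte progenitor, 0.02 for microglia and -0.10 for vessel markers, and -0.06, -0.05, 0.09 and 0.001 for cerebellar granule cell, cortical projection neuron, thalamus and midbrain neuron and striatal neuron markers, with no gene of these lists at an adjusted p under 0.05. The part of a shift in cell types in the members' values was not tested.

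A feature the list was not chosen on is exon structure, since the study set genes without introns apart. The coding sequence lies in 1 exon in 11 of the 43 genes: Lrrtm1, Slitrk1 to Slitrk5, Lrrc4, Lrrc4c and Flrt1 to Flrt3. Their coding exons run from 1566 bases (Lrrtm1) to 2940 bases (Slitrk3). Their median log2 fold change was -0.001, from -0.10 (Lrrtm1) to 0.19 (Flrt1), and 0 of 11 passed the test. The 32 members with several coding exons had a median of 0.02, and 0 of 32 passed. Among all protein-coding genes tested outside the clustered protocadherins, 11 of 933 with 1 coding exon were higher at an adjusted p under 0.05, and 24 of 13524 with several. Lower at that limit were 0 of 933 and 13 of 13524. At such shares, 0 of 11 does not set the single-exon members apart from other single-exon genes. The 11 single-exon members had levels of 23.5 CPM or more in every library.

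Position was a further feature. A total of 7 members lie inside a larger gene on the opposite strand, such as Lrrtm1 within Ctnna2, Lrrtm2 within Ctnna1 and Lrrtm3 within Ctnna3, which encode alpha-catenins of the cadherin complex. The others are Lrrc4 within Snd1, Lrfn1 within Samd4b, Flrt1 within Macrod1 and Flrt3 within Macrod2. For the 7 nested members the median log2 fold change was -0.03, and neither they nor the 7 host genes passed the test, the lowest adjusted p among hosts being 0.906. The strand setting of the authors' counting is not given in the sources used here. Genes lying wholly under exons of the opposite strand were counted nearly as often (27.5% with at least 10 counts) as genes free of overlap (33.5%), and those wholly under exons of the same strand were not (0.399%). The 4 X-linked members, Nlgn3, Slitrk2, Slitrk4 and Tenm1, had log2 fold changes from -0.03 to 0.08, which were between 0.01 and 0.10 without control replicate 3. Leaving aside genes that overlap a member on the same strand, at most 0.545% of a member's transcript words of 50 bases occurred in transcripts of another gene (Nlgn3).

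A further 36 genes of the same pathway were read from the fit, namely 6 paralogs of members, 14 partners and 16 other synaptic organizers. None reached an adjusted p under 0.05, where 0.628% of all genes tested did. Their median log2 fold change was 0.01, with 18 above 0 and 18 below. For 36 of 36 the 95% interval lay within 1.5-fold, against 74.3% of all genes and 98.7% of genes at the members' levels. At an unadjusted p under 0.05, 2 of 36 passed (5.56%, against 6.51% of all genes). Mphosph8∆n replicate 1 was the highest library for 22 of them (61.1%, against 21.6% of all genes). Without it, both other Mphosph8∆n values were below the controls for 13 (36.1%). That share was 12.9% of all genes and 15.2% of genes at the members' levels. Both values were above the controls for 1 (2.78%, against 12.6% of all genes). The library left out was the one highest for most of this list, so the excess below the controls is partly set by that choice.

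The 3 genes with the smallest p in this wider list were the ones whose groups did not overlap. Mphosph8∆n was above the controls for 1 of 36 (2.78%, against 6.23% of all genes) and below for 2 (5.56%, against 5.42%). Elfn1, a postsynaptic protein that recruits presynaptic metabotropic glutamate receptors, had 33.3, 33.5 and 30.8 CPM in controls and 40.5, 36.5 and 43.6 CPM in Mphosph8∆n. All Mphosph8∆n values were above the controls, with a log2 fold change of 0.31 ± 0.09 (SE, 95% interval 0.11 to 0.51) and an adjusted p of 0.276, so it did not pass. Unc5b, a netrin and FLRT receptor, had 85.3, 86.4 and 88.2 CPM in controls and 82.0, 69.9 and 75.8 CPM in Mphosph8∆n (log2 fold change -0.19 ± 0.08, adjusted p 0.657). Il1rap, a postsynaptic partner of LAR-type phosphatases as well as an interleukin receptor subunit, had 46.9, 46.7 and 49.5 CPM in controls and 43.6, 41.9 and 41.9 CPM in Mphosph8∆n (log2 fold change -0.17 ± 0.08, adjusted p 0.800).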

How the data were processed

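RNA-seq counts of 6 whole brains (3 control, 3 Mphosph8∆n, 1 library each, groups per the labels) were analysed. The authors sequenced polyA-selected libraries as single reads, trimmed them with Trim Galore 0.5.0, removed ribosomal, mitochondrial, phiX and adapter reads with Bowtie2 2.3.4.1, aligned the rest to GRCm38 with STAR and summed the reads of each Ensembl gene with featureCounts (Subread 1.6.2). The deposited values are these raw counts, not normalized. The labels call the controls heterozygous for the floxed allele, which the study's text does not mention, and the labels were followed. The paper calls the control and mutant brains littermates, and the labels used here do not name litters. The p-values measure the spread between these brains. Replicates differed by more than sampling noise (chi-square per degree of freedom 3.42 to 12.3).

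From the counts, edgeR 4.0.16 in R 4.3.3 (filterByExpr, TMM, quasi-likelihood F test, genotype only) was fitted to all 16731 genes passing the filter, with Benjamini-Hochberg adjustment over all of them. Standard errors and 95% intervals came from the F statistic. CPM used effective library sizes, and RPKM divided CPM by exonic kilobases, leaving out bases shared on the same strand. Log2 levels against other libraries used CPM + 0.5. Names and exons came from GENCODE M21, which matched 54495 identifiers. Scripts were tested on simulated counts.

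The members and lists were chosen with earlier results of these data known. Values in full are given for the 10 members with the smallest p, and of each family the highest and lowest log2 fold change are named. Other members' levels and the 12 genes named without replicate 1 were added after their values were seen. Alternatives were DESeq2 1.42.0 and limma-voom (limma 3.58.1) in place of edgeR, RLE in place of TMM, no filter or a filter of 1 CPM in 3 libraries, leaving out each library, a replicate block and, after the data were seen, control replicate 3 and Mphosph8∆n replicate 1 both left out. Replicate numbers were not taken to pair the samples.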

Additional observations from a re-analysis of the deposited data

How the results depend on the processing

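No member and none of the 36 other pathway genes passed at an adjusted p under 0.05 in any of 13 alternatives, and the lowest adjusted p among the 10 members given in full was 0.160 over these. Intervals within 1.5-fold numbered 41 to 43 of 43, and the median member log2 fold change ran from -0.08 (without Mphosph8∆n replicate 1) to 0.05. Of 130 log2 fold changes of those 10 members, which were chosen for the smallest p, 128 kept their sign. This does not hold for the whole list: 25 of the 43 members were above 0 with 6 libraries, and 10 without Mphosph8∆n replicate 1. Flrt1 reversed to -0.00427 with control replicate 3 and Mphosph8∆n replicate 1 both left out, and Cadm1, between -0.0084 and 0.23 with 1 library left out, was below 0 without Mphosph8∆n replicate 1. The cause was not tested. The Mphosph8 log2 fold change lay between -1.13 and -0.85.

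Members whose groups did not overlap, 1 with all libraries, numbered 2 to 12 with 1 library left out, 12 of them being the count without Mphosph8∆n replicate 1, and 16 with control replicate 3 and Mphosph8∆n replicate 1 both left out. Smaller groups overlap less often by construction: over all genes the share not overlapping was 11.6% with 6 libraries, 17.9% to 25.5% with 1 left out and 40.8% with both left out. Among members it was 2.33%, 4.65% to 27.9% and 37.2%. Over all genes, those called numbered 60, and 96 with no filter on low counts. Those at an adjusted p under 0.05 numbered 105, 242 with no filter, 66 to 162 with 1 library left out, and 205 with both libraries left out.

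With the replicate block, 0 members passed, 62 genes were called and 124 were at an adjusted p under 0.05, so no call of a member changed. Same-numbered libraries correlated at 0.10, -0.05 and 0.08 in their deviations from the group means, and other pairs at -0.16 to 0.09. The numbers were not taken as pairs, though such values cannot exclude a pairing. With 3 libraries per group, small differences of members could have been missed. The intervals are per gene and not adjusted over all genes tested, so they do not mark the smallest detectable difference. In the fit without the block, the intervals of Clstn2, Adgrl3 and Tenm2 excluded 0. Their adjusted p-values were nevertheless 0.716, 0.716 and 0.726 (edgeR quasi-likelihood test).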
